A study of Mus musculus with 20 samples.

Results

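The 10 genes described here encode chromatin regulators, several of which are recurrently mutated in B cell lymphoma. They were chosen by name from the deposited table of 25869 genes, by the Entrez identifiers of *Ezh2*, *Ezh1*, *Eed*, *Suz12*, *Ep300*, *Crebbp*, *Kmt2d*, *Kmt2c*, *Setd2* and *Dot1l*. All 10 were found, and all 10 passed the filter on low values in each of the 8 comparisons. The question was how the RNA of these regulators was distributed over fibroblasts, lymphoma lines, primary tumours and a precursor B cell leukaemia.

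The 20 mouse libraries were RNA-seq libraries of cultured cells, apart from the primary tumours. Of these, 10 came from mouse embryonic fibroblasts (MEFs), which were grown from E14 embryos as 2 lines for each genotype. The MEF groups were 2 WT libraries, 2 dCas9-SAM libraries without an sgRNA, 2 dCas9-SAM libraries with a non-targeting control (sgNT) and 4 dCas9-SAM libraries with sg*Bcl-2*, the last being 2 libraries of each MEF line. dCas9-SAM is a CRISPR activation cassette in which an inactive Cas9 carries the VP64 activator and a guide RNA recruits further activators. It sits at *Rosa26* under the CAG promoter, is active in all tissues and was carried by every MEF group except WT. The 6 lymphoma lines were *Eµ-Myc*, dCas9-SAM and sg*Bcl-2*, and 4 of them were IgM-positive (lines 14 to 17) and 2 IgM-negative (lines 18 and 19). The *Eµ-Myc* transgene drives *Myc* from the immunoglobulin heavy chain enhancer, and the lymphomas arose from transduced blood stem and progenitor cells in irradiated recipient mice. Each line came from 1 mouse. The 2 primary tumours (20 and 21) were IgM-positive, of the same genotype, and came from the mice of lines 14 and 15. The 2 preB-ALL libraries were leukaemias with BCR-ABL1 (p190), whose titles also name Cre and *Erg* alleles, and whose labels name neither *Eµ-Myc* nor the CRISPR cassette. They were grown with IL7, extracted with another RNA kit and, by their labels, sequenced in another run, so that tumour type, culture and batch cannot be told apart in any comparison with them. Neither healthy B cells nor lymphoma lines without sg*Bcl-2* were analysed here.

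PRC2 is the Polycomb complex that methylates lysine 27 of histone H3 and keeps genes silent. EZH2 and EZH1 are its alternative catalytic subunits, EED reads the mark and stimulates the enzyme, and SUZ12 holds the complex together. EZH2 is abundant in dividing cells and in germinal centre B cells, whereas EZH1 persists in resting cells. EP300 and CREBBP are paralogous acetyltransferases that activate enhancers. KMT2D and KMT2C place the monomethyl mark on lysine 4 of histone H3 at enhancers, SETD2 trimethylates lysine 36 of histone H3 along transcribed genes, and DOT1L methylates lysine 79 of histone H3. In lymphoma, *EZH2* is known for activating mutations, and *CREBBP*, *EP300* and *KMT2D* for inactivating ones.

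Total reads per library were between 12474885 and 26678417, with both preB-ALL libraries the shallowest. The lowest count behind any value of the 10 genes was 272 reads. Fibroblast markers (12 genes) summed to between 8400 and 25261 CPM in the MEF libraries and to between 5.72 and 88.2 CPM in the lymphoma lines. CPM is reads of a gene for every 1000000 reads counted on genes. In the preB-ALL libraries the same list summed to 5796 and 2448 CPM, with *Fn1* and collagen genes high and *Dcn* at 0 in both. B cell markers (10 genes) summed to between 2360 and 5045 CPM in the lines, to 10831 and 12090 CPM in the tumours and to 11290 and 14954 CPM in preB-ALL, and *Ms4a1*, which encodes CD20, was at 7.46 CPM or less in every line. The WT MEF libraries differed from each other far more than other MEF replicates did. Their chi-square per degree of freedom over genes was 326, against between 7.32 and 26.8 within the other MEF groups. WT MEF 2 had the lowest fibroblast sum of the MEFs (8400 CPM) and the highest macrophage sum (229 CPM, against between 8.52 and 14.1 CPM in the other MEF libraries). Tests that use the WT libraries are therefore given with and without it. The lymphoma lines came from different mice and the libraries of the other MEF groups from different MEF lines, whereas the 4 sg*Bcl-2* MEF libraries came from 2 lines and were not stated to be separate transductions, so that p-values that count them as 4 may measure technical spread in part. Tests across all genes that use them were also run with the libraries of one line summed.

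The genes lie on 8 chromosomes of GRCm38. The PRC2 genes are *Ezh2* (chr6:47530274-47595270, minus strand), *Ezh1* (chr11:101191115-101226463, minus), *Eed* (chr7:89954654-89980976, minus) and *Suz12* (chr11:79993106-80034123, plus). The acetyltransferase genes are *Ep300* (chr15:81586209-81652077, plus) and *Crebbp* (chr16:4081334-4213957, minus). The methyltransferase genes are *Kmt2d* (chr15:98831669-98874077, minus), *Kmt2c* (chr5:25271795-25498855, minus), *Setd2* (chr9:110532500-110618633, plus) and *Dot1l* (chr10:80755101-80795461, plus). The values are sums over the exons of each gene. Antisense genes share 6.82% of the exonic bases of *Eed*, 3.60% of *Suz12*, 2.61% of *Ezh2* and 1.35% of *Kmt2c*, and as the library kit does not mark strand, reads in those stretches cannot be assigned to one gene.

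Upstream sequences are shown for *Ezh2* and *Suz12*, the PRC2 genes that differed most between fibroblasts and lymphoma lines, and for *Ezh1*, which differed least. They are from RefSeq on GRCm38.p6, 5′ to 3′ on the strand of the gene, and capitals mark matches to CCAAT or TTTCCCGC on either strand (ATTGG and GCGGGAAA on the reverse). For *Ezh2* the 125 bases (chr6:47595059-47595183, minus) are the longest stretch, of the 250 bases before the start site used, that no annotated exon covers. They end 28 bases before that site and lie within the gene span given above. For *Suz12* (chr11:79992856-79993105, plus) and *Ezh1* (chr11:101226464-101226713, minus) the 250 bases before the start site are shown.
Ezh2: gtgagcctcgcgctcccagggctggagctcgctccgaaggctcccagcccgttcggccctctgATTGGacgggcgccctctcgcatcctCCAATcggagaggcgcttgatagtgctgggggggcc
Suz12: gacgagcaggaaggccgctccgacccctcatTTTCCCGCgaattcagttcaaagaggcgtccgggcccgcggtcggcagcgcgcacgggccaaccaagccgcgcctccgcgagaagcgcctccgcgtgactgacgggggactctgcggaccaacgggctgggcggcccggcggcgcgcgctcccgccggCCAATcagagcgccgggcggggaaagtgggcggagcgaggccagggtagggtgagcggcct
Ezh1: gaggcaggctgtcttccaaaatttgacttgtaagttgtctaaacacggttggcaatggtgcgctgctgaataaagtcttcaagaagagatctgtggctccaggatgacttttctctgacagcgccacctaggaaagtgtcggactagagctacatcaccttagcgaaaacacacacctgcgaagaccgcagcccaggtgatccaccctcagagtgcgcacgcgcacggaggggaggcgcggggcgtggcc
CCAAT was found in the promoter windows of *Ezh2*, *Eed* and *Suz12*, and in 37.9% of 27025 mouse promoter windows of 300 bases (250 before and 50 after the start). The E2F-like string TTTCCCGC was found in *Suz12* and in 1.11% of all windows, and TTTGGCGC was found in *Ezh2*, after the stretch printed above, and in 0.537% of all windows. None of the 10 windows held CACGTG, the core of the site bound by MYC, which was in 7.24% of all windows, nor ACCGGAAG (2.34%) or GCGCATGC (2.81%). Of the 10 windows, 9 held between 23 (*Ezh1*) and 56 (*Kmt2c*) CpG dinucleotides, above the upper quartile of 21 over all windows. The window of *Eed* held 17, between that quartile and the median of 7. These matches describe the letters in these windows and not binding.

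Levels of different genes were compared per kilobase of exon, with exons merged over all annotated transcripts. In the 6 lymphoma lines *Suz12* was the highest, at 72.3 ± 9.11 CPM per kb (SD, n = 6). *Ezh2* followed at 33.4 ± 5.12 CPM per kb and *Eed* at 27.3 ± 4.12 CPM per kb, and the ranges of these last genes over the lines overlapped. *Dot1l* was at 21.9 ± 3.26 CPM per kb and *Setd2* at 20.7 ± 3.80 CPM per kb, again with overlapping ranges. A step below came *Kmt2d* at 12.8 ± 2.04 CPM per kb and *Ep300* at 10.3 ± 1.27 CPM per kb, which overlapped with each other but not with *Setd2*. The lowest were *Kmt2c* at 6.34 ± 0.616 CPM per kb, *Crebbp* at 4.19 ± 1.18 CPM per kb and *Ezh1* at 3.76 ± 0.536 CPM per kb, of which *Crebbp* overlapped with both others. In the 4 sg*Bcl-2* MEF libraries *Suz12* was also the highest, at 15.7 ± 1.20 CPM per kb (SD, n = 4), and *Eed* came next at 10.9 ± 0.390 CPM per kb. *Ezh2* ranked second of the 10 genes in the lymphoma lines, but ninth in the sg*Bcl-2* MEFs, at 2.11 ± 0.265 CPM per kb, where only *Kmt2c* (1.47 ± 0.158 CPM per kb) was lower. 

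**Figure D1:**
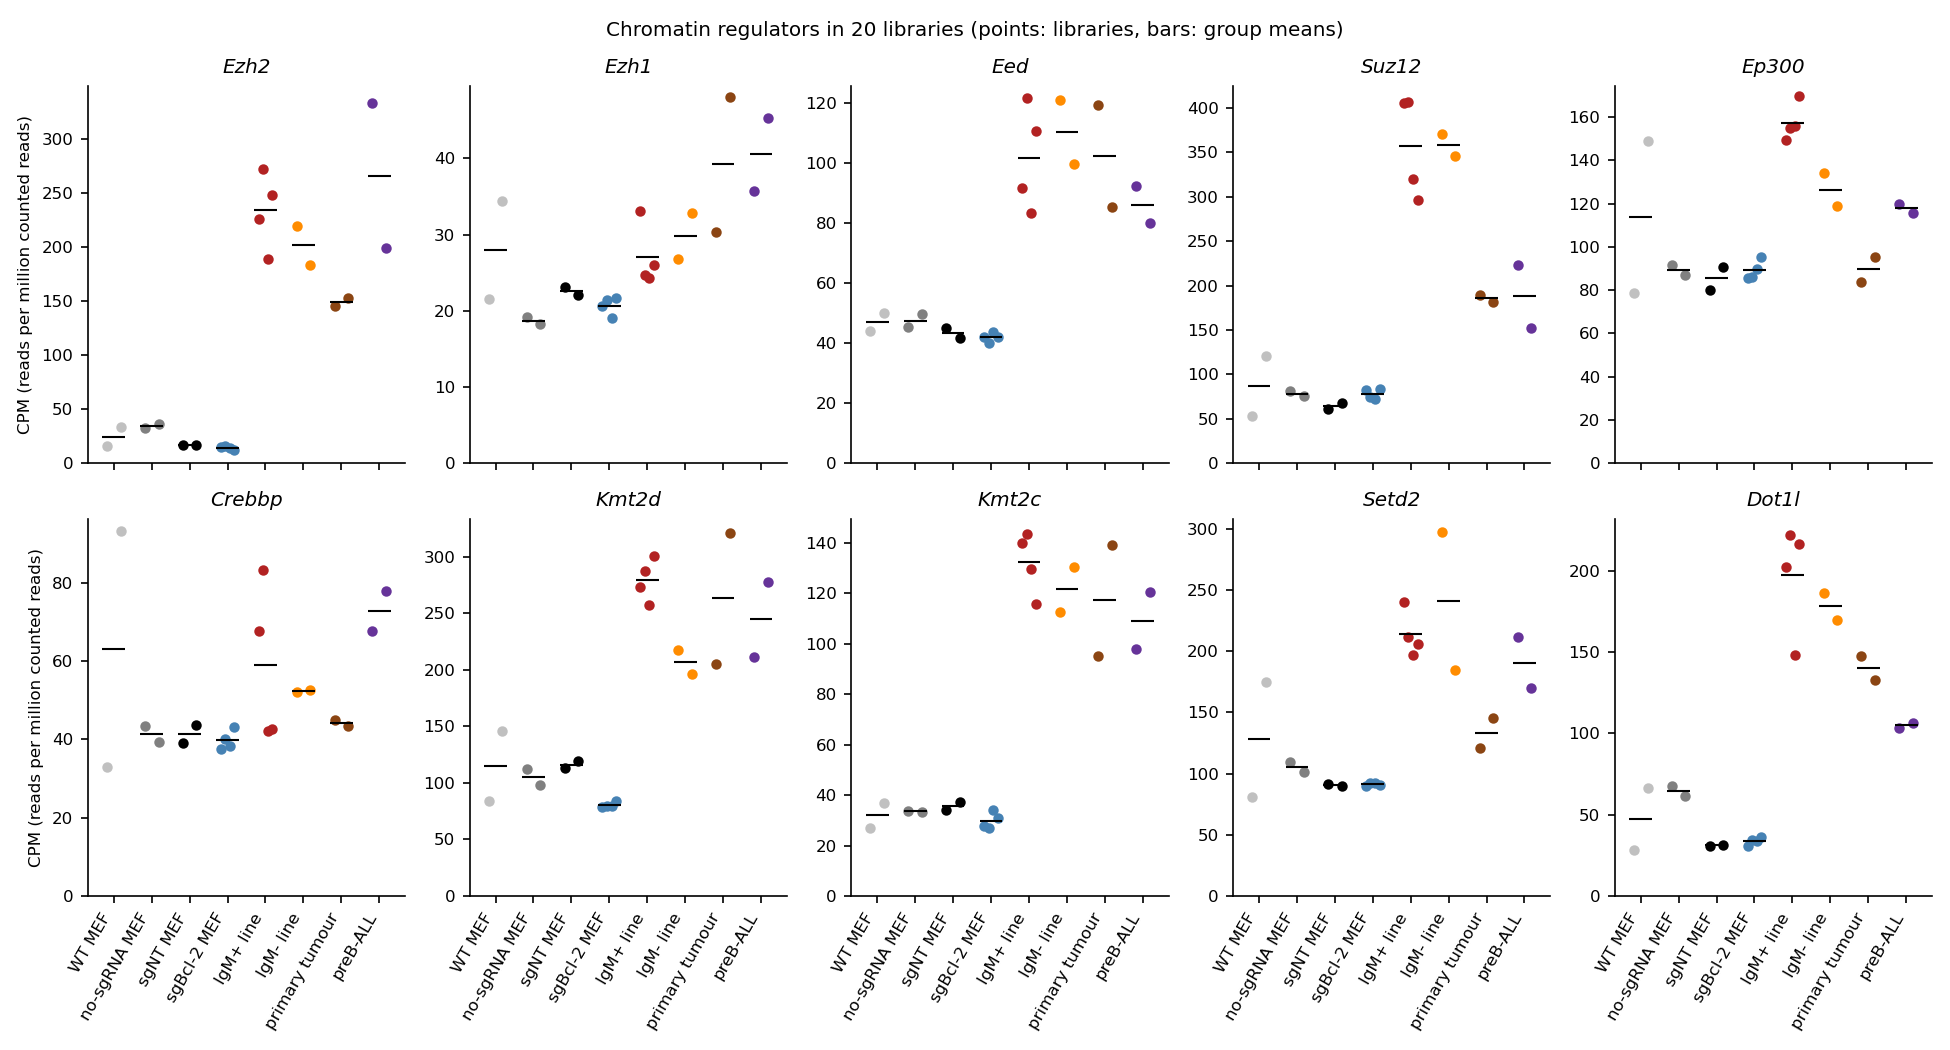
CPM of the 10 chromatin regulators (y axes from 0, each gene on its own scale) in 20 libraries by group, with points for libraries and bars for group means. *Ezh2* sat between 11.7 and 36 CPM in the MEF libraries and between 145 and 333 CPM in the lymphoma lines, tumours and preB-ALL, whereas *Crebbp* had overlapping values in MEFs and lymphoma lines.

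Across all 20 libraries the 10 genes differed widely in how much they varied. *Ezh2* had a 28.6-fold range, from 11.7 CPM in an sg*Bcl-2* MEF library to 333 CPM in preB-ALL 1. *Dot1l* (7.81-fold), *Suz12* (7.66-fold) and *Kmt2c* (5.30-fold) came next, followed by *Kmt2d* (4.10-fold), *Setd2* (3.68-fold) and *Eed* (3.04-fold). *Crebbp* (2.84-fold), *Ezh1* (2.64-fold) and *Ep300* (2.17-fold) varied least. *Crebbp* had both its lowest and its highest value in WT MEFs, 32.9 CPM in WT MEF 1 and 93.2 CPM in WT MEF 2, and without WT MEF 2 its range was 2.53-fold, below that of *Ezh1*. The ranges of the other 9 genes did not rest on WT MEF 2.

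In the lymphoma lines 8 of the 10 regulators were higher than in the sg*Bcl-2* MEFs, and none was lower. The largest difference was in *Ezh2*, the inducible catalytic subunit of PRC2, which was 13.8-fold higher. *Dot1l*, *Suz12* and *Kmt2c* were between 3.80-fold and 4.95-fold higher, and *Ezh1* and *Crebbp* did not pass the test. In this comparison of unlike cell types 81.3% of the 14620 genes tested passed, with 36.3% higher in the lines. The median log2 fold change was 1.30 over the 10 genes and -0.27 over all genes tested.

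Among the PRC2 subunits, *Ezh2* was at 14.6, 15.9, 14.3 and 11.7 CPM in the 4 sg*Bcl-2* MEF libraries. In the 6 lines it was at 183 CPM at the lowest, 223 CPM at the median and 273 CPM at the highest, so that every line was more than 10 times above every sg*Bcl-2* MEF library. The log2 fold change was 3.79 (SE 0.116, limma adjusted p = 2.44e-10). *Suz12*, the scaffold, was between 71.6 and 83.3 CPM in the MEF libraries and between 297 and 407 CPM in the lines (log2 fold change 2.01, SE 0.0980, limma adjusted p = 9.94e-09). *Eed* was between 39.9 and 43.6 CPM in the MEF libraries and between 83.1 and 121 CPM in the lines (log2 fold change 1.13, SE 0.110, limma adjusted p = 3.21e-06). The groups did not overlap for any of these genes. *Ezh1*, the other catalytic subunit, was between 19.0 and 21.7 CPM in the MEF libraries and between 24.3 and 33.0 CPM in the lines, and although these ranges did not overlap either, its log2 fold change of 0.25 (SE 0.126) did not pass (limma adjusted p = 0.0938) on the scaled values.

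*Ep300* was at 85.4, 86.0, 89.7 and 95.2 CPM in the sg*Bcl-2* MEF libraries and between 119 and 170 CPM in the lines, with a median of 152 CPM. It passed with a log2 fold change of 0.54 (SE 0.0928, limma adjusted p = 0.000301). *Crebbp* was between 37.6 and 43.0 CPM in the MEF libraries and between 42.1 and 83.3 CPM in the lines, and lines 16 and 17 lay within the MEF range. Its log2 fold change was 0.29 (SE 0.171, limma adjusted p = 0.139). Without a scaling factor both *Ezh1* (0.42, adjusted p = 0.00673) and *Crebbp* (0.47, adjusted p = 0.0370) passed in limma, a setting that moves the median of all genes from -0.27 to -0.10. With the libraries of one MEF line summed, the same 8 genes passed, where 70.7% of all genes did. *Ezh1* also passed without line 15 (adjusted p = 0.0283), and over 17 alternative fits its adjusted p was between 0.00673 and 0.670 and that of *Crebbp* between 0.0370 and 0.538.

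All 4 methyltransferase genes outside PRC2 passed in limma, each without overlap between the groups. *Dot1l* was between 30.6 and 36.3 CPM in the MEF libraries and between 148 and 222 CPM in the lines, with a log2 fold change of 2.31 (SE 0.108, adjusted p = 6.89e-09). *Kmt2c* was between 27.1 and 34.0 CPM against between 113 and 144 CPM (1.93, SE 0.0864, adjusted p = 5.07e-09), and *Kmt2d* between 78.5 and 83.8 CPM against between 196 and 301 CPM (1.47, SE 0.107, adjusted p = 2.80e-07). *Setd2* was between 90.1 and 92.3 CPM against between 185 and 297 CPM (1.09, SE 0.130, adjusted p = 1.78e-05). Of the paralogous pair at enhancers, *Kmt2c* therefore had the larger log2 fold change. The proliferation list (8 genes, among them *Mki67* and *Top2a*) summed to between 3735 and 5189 CPM in the lines and to between 275 and 391 CPM in the sg*Bcl-2* MEFs, and its part in these differences was not tested. In bulk RNA, fewer cells that express a gene and less RNA of it in each cell cannot be told apart.

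Of 38 other chromatin genes, 28 were higher and 6 lower in the lines, with a median log2 fold change of 0.96, where 81.3% of all genes passed and 36.3% were higher. By function, 7 of 8 PRC2 accessory genes, 10 of 11 other COMPASS genes, 5 of 7 other acetyltransferases, 4 of 6 partners of DOT1L, 1 of 4 other lysine 36 methyltransferases and 1 of 2 lysine 27 demethylases were higher. *Nsd2*, which dimethylates lysine 36 of histone H3, had the largest log2 fold change (3.18, SE 0.140), from between 26.3 and 28.7 CPM in the MEFs to between 217 and 419 CPM in the lines. *Phf19*, a Polycomb-like accessory subunit of PRC2, followed with 2.74 (SE 0.244). Its relative *Phf1* went the other way, from between 36.7 and 43.4 CPM to between 5.69 and 18.2 CPM (-2.33, SE 0.284), and *Aff4*, a scaffold of elongation complexes, was also lower (-2.02, SE 0.287).

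**Figure D2:**
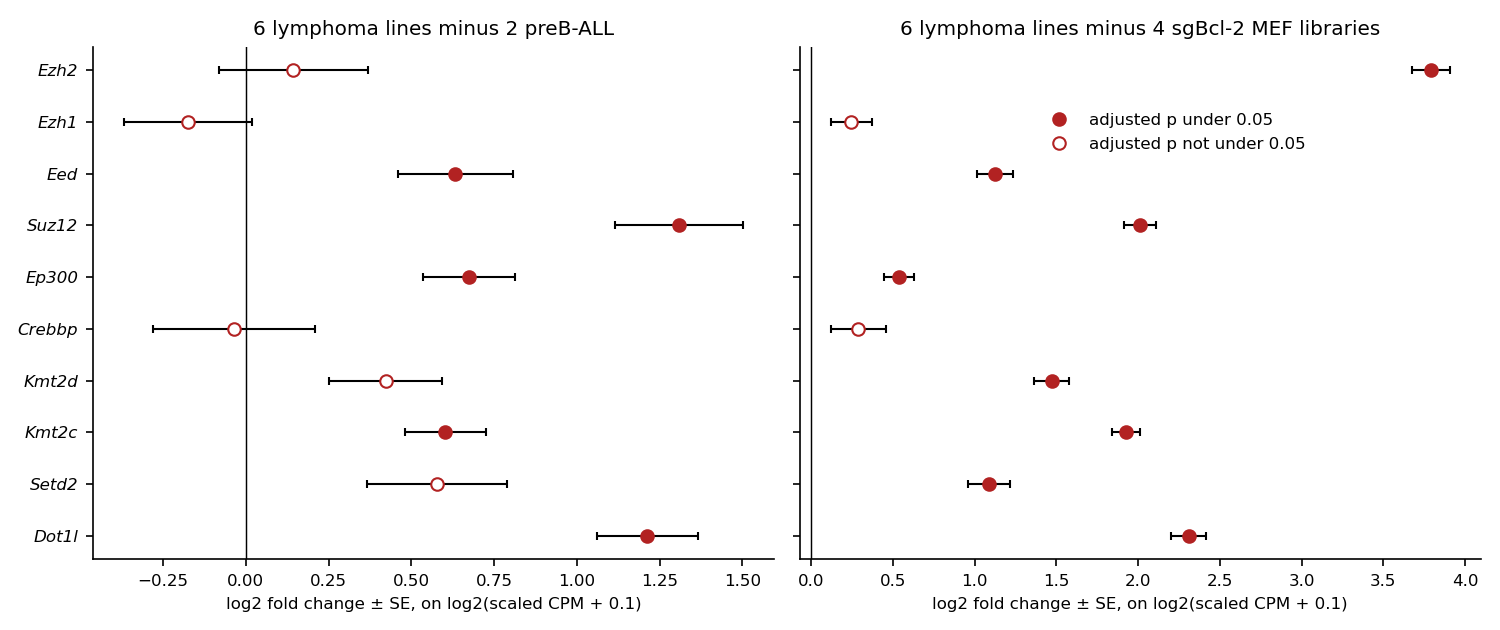
Log2 fold changes with their standard errors (x axes, on log2 of scaled CPM + 0.1) of the 10 genes in the 6 lymphoma lines against the 2 preB-ALL libraries (left) and against the 4 sg*Bcl-2* MEF libraries (right), with filled points for an adjusted p under 0.05. *Ezh2* lies at 3.79 on the right and at 0.14 on the left, and the x axes differ in scale.

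Against preB-ALL, the other B-lineage tumour of the series, the pattern of the 10 genes was not the one seen against MEFs, although both comparisons use the same 6 lines. *Dot1l* (2.32-fold) and *Suz12* (2.48-fold) were higher in the lymphoma lines, and *Ep300*, *Eed* and *Kmt2c* were between 1.52-fold and 1.60-fold higher. *Ezh2*, *Ezh1*, *Crebbp*, *Kmt2d* and *Setd2* did not pass the test. Over the 13961 genes tested 43.4% passed, with 20.9% higher in the lines, and of the 10 genes 5 passed, all of them higher. The median log2 fold change was 0.59 over the 10 genes and -0.07 over all genes.

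*Dot1l* was at 104 and 106 CPM in preB-ALL and at 148 CPM at the lowest, 195 CPM at the median and 222 CPM at the highest in the lines, with no overlap. Its log2 fold change was 1.21 (SE 0.153, limma adjusted p = 0.000392). *Suz12* was at 223 and 153 CPM in preB-ALL and between 297 and 407 CPM in the lines, with a median of 358 CPM. Its log2 fold change was 1.31 (SE 0.194, limma adjusted p = 0.000987), and every line was above both preB-ALL libraries. *Dot1l* also passed in all of the 16 alternative fits (adjusted p between 4.30e-10 and 0.0102) and *Suz12* in 15 of them (adjusted p between 1.72e-07 and 0.103).

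The other calls rested on smaller differences. *Ep300* was at 120 and 116 CPM in preB-ALL and between 119 and 170 CPM in the lines, and only line 19 lay within the preB-ALL range (log2 fold change 0.68, SE 0.139, limma adjusted p = 0.00509). *Eed* was at 92.2 and 79.9 CPM against between 83.1 and 121 CPM (0.63, SE 0.175, adjusted p = 0.0187), and *Kmt2c* at 97.8 and 121 CPM against between 113 and 144 CPM (0.60, SE 0.122, adjusted p = 0.00465). All 3 overlapped between the groups in CPM. The scaling factors, which divide the CPM before the test, were 1.22 and 1.31 in preB-ALL and between 0.926 and 1.04 in the lines when computed over all 20 libraries. Without a scaling factor the median of all genes moved from -0.07 to -0.42, the calls over all genes moved from 2921 higher and 3143 lower to 1691 higher and 4400 lower, and *Ep300* (adjusted p = 0.115), *Eed* (adjusted p = 0.230) and *Kmt2c* (adjusted p = 0.194) no longer passed in limma, while *Ezh1* passed as lower (-0.54, adjusted p = 0.04999). Over the 16 alternative fits *Ep300* passed in 13 (adjusted p between 0.000343 and 0.376), *Eed* in 13 (between 0.0132 and 0.230), *Kmt2c* in 14 (between 0.000286 and 0.194) and *Ezh1* in 1 (between 0.04999 and 0.853).

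*Ezh2* was at 333 CPM in preB-ALL 1 and at 199 CPM in preB-ALL 2, and the 6 lines lay between 183 and 273 CPM, so that the preB-ALL libraries differed from each other by more than the lines did. Its log2 fold change was 0.14 (SE 0.224, limma adjusted p = 0.628), and without preB-ALL 2 it was -0.33. The proliferation list summed to 4139 CPM in preB-ALL 1 and 2805 CPM in preB-ALL 2, and whether it bears on the *Ezh2* values was not tested. *Setd2* was at 211 and 170 CPM against between 185 and 297 CPM (0.58, SE 0.211, limma adjusted p = 0.0548), and it passed without line 18 (adjusted p = 0.0448, between 0.0448 and 0.577 over the alternatives). *Kmt2d* was at 211 and 278 CPM against between 196 and 301 CPM (0.42, SE 0.171, limma adjusted p = 0.0762), and it passed without line 19 (adjusted p = 0.0383, between 0.0383 and 0.821 over the alternatives). *Ezh1* was at 35.7 and 45.4 CPM in preB-ALL, above the highest line (33.0 CPM), but on the scaled values its log2 fold change was -0.17 (SE 0.194, limma adjusted p = 0.493). *Crebbp* was at 67.7 and 77.8 CPM against between 42.1 and 83.3 CPM (-0.04, SE 0.244, limma adjusted p = 0.916).

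When preB-ALL 2 was left out, *Eed* (adjusted p = 0.219) and *Ep300* (adjusted p = 0.0685) were lost in limma, and 3 of the 10 genes passed, where 22.2% of all genes did. In this fit, as in every fit that leaves a group with 1 library, the lone library was assumed to vary like the other group. With tumours 20 and 21 fitted instead of lines 14 and 15, *Dot1l* alone of the 10 passed, where 26% of all genes did. The part of the fibroblast markers in the preB-ALL libraries, whose sums are given above, in these differences was not tested.

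Of the 38 other chromatin genes, 15 were higher and 4 lower in the lines than in preB-ALL, with a median log2 fold change of 0.42, where 43.4% of all genes passed and 20.9% were higher. These included 4 of 8 PRC2 accessory genes and 5 of 11 other COMPASS genes as higher, and none of 4 other lysine 36 methyltransferases in either direction. *Lcor*, whose locus encodes a PRC2 accessory protein (1.65, SE 0.351, between 8.31 and 14.1 CPM in the lines and 2.97 to 5.14 CPM in preB-ALL), and *Paxip1*, a component of the KMT2C and KMT2D complexes (1.26, SE 0.246), had the largest increases. *Phf1* (-1.54, SE 0.526) and the acetyltransferase *Kat6b* (-1.31, SE 0.235, between 25.7 and 47.1 CPM in the lines and 96.0 to 97.4 CPM in preB-ALL) had the largest decreases.

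The ratio of related genes within a library does not depend on the scaling factor, and it was computed per kilobase. The *Ezh2*/*Ezh1* ratio was 0.790, 0.829, 0.839 and 0.601 in the 4 sg*Bcl-2* MEF libraries and between 6.19 and 12.2 in the lines. On the log2 scale this was -0.40 ± 0.226 (SD, n = 4) against 3.15 ± 0.348 (SD, n = 6), a difference of 3.54 (two-sided exact permutation p = 0.00476, the smallest that 6 against 4 allows, 0.0286 after adjustment over 6 tests), a test that counts the 4 libraries of 2 MEF lines as separate. *Ezh1* was thus the more abundant RNA of the pair per kilobase of merged exons in all 4 sg*Bcl-2* MEF libraries, and *Ezh2* in all 6 lines. The order within a library depends on the exon lengths used, and lengths of single transcripts were not tried. The sgNT MEF libraries (0.796 and 0.846) lay with the sg*Bcl-2* MEFs, and the no-sgRNA MEF libraries (1.86 and 2.20) lay above them. The WT MEF libraries were at 0.818 and 1.07, and the primary tumours, at 5.32 and 3.53, lay above all MEF libraries and below the lowest line. In preB-ALL 1 the ratio was 10.4 and in preB-ALL 2 it was 4.87, and the difference from the lines of 0.32 on the log2 scale did not pass (two-sided exact permutation p = 0.393, adjusted p = 0.429, smallest possible 0.0357).

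The *Ep300*/*Crebbp* ratio was at its highest in line 17 (3.77) and line 16 (3.51), and the other 4 lines lay between 1.76 and 2.45. The sg*Bcl-2* MEF libraries lay between 2.03 and 2.22, and preB-ALL was at 1.68 and 1.41, below every line. The difference between lines and preB-ALL was 0.71 on the log2 scale (two-sided exact permutation p = 0.0714, adjusted p = 0.143), and between lines and sg*Bcl-2* MEFs it was 0.25 (two-sided exact permutation p = 0.338, adjusted p = 0.429). The *Kmt2d*/*Kmt2c* ratio was between 1.53 and 2.64 in the lines, 2.20 and 2.35 in preB-ALL and between 2.37 and 2.99 in the sg*Bcl-2* MEFs. The difference between lines and these MEFs was -0.45 on the log2 scale, which passed before adjustment (two-sided exact permutation p = 0.0286) and not after it (adjusted p = 0.0857). The ratio tests against these MEFs count the 4 libraries of 2 MEF lines as separate. Against preB-ALL the difference was -0.18 (two-sided exact permutation p = 0.429, adjusted p = 0.429).

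**Figure D3:**
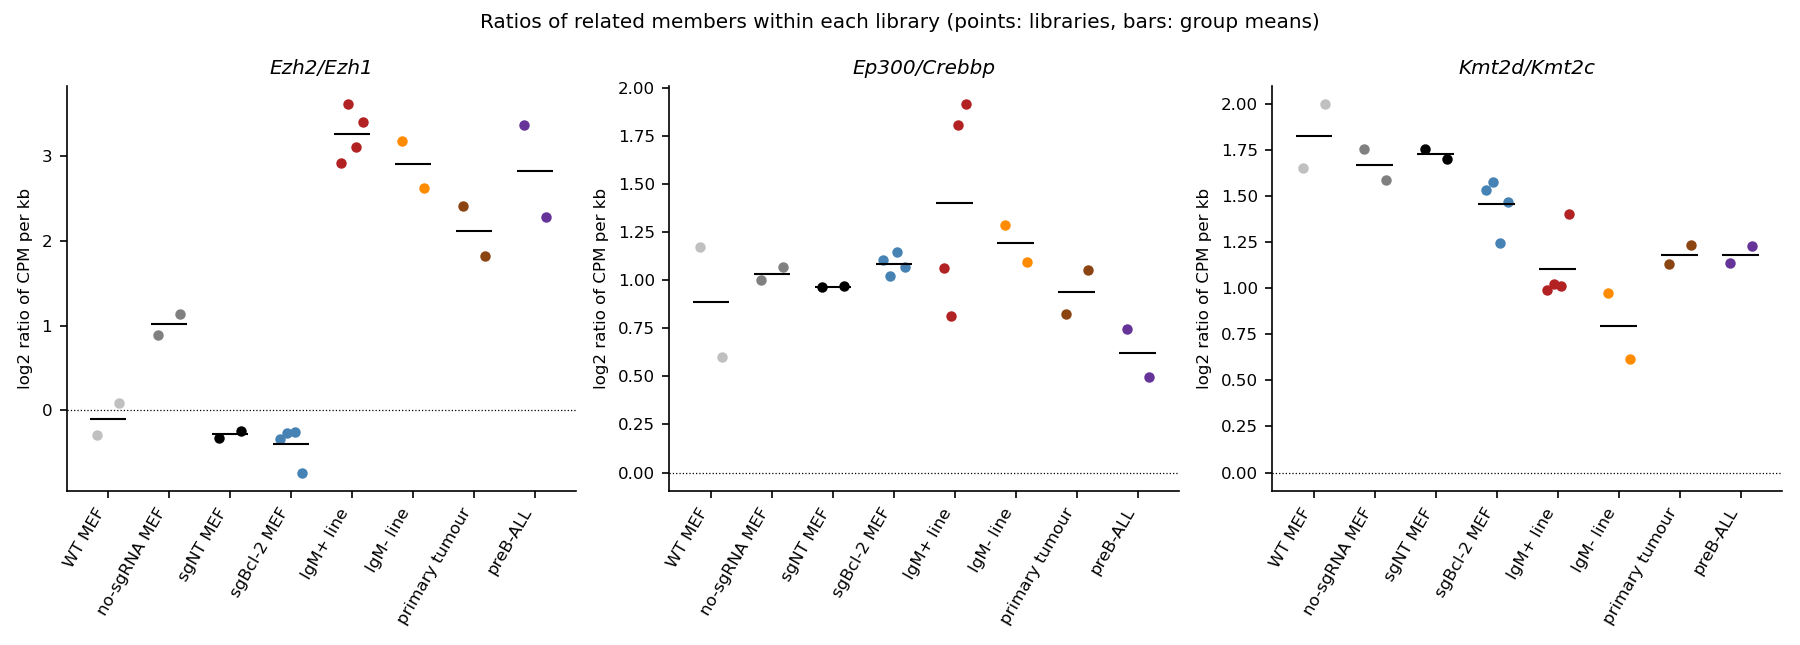
Log2 ratios of CPM per kb for 3 pairs of related genes (y axes) in each library by group, with points for libraries, bars for group means and a dotted line at equal levels. *Ezh2*/*Ezh1* lies below 0 in the sgNT and sg*Bcl-2* MEFs and between 2.63 and 3.61 in the 6 lines, and lines 16 and 17 lie above the other lines for *Ep300*/*Crebbp*.

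The spread over the 6 lines was computed for the 10 genes only, and not for all genes. The highest line exceeded the lowest by 1.28-fold for *Kmt2c*, and by between 1.36-fold and 1.61-fold for 8 genes. *Crebbp* had the widest range of the 10 genes with 1.98-fold. It was at 42.1 CPM in line 16, 42.6 CPM in line 17, 67.6 CPM in line 14 and 83.3 CPM in line 15. The IgM-negative lines 18 (52.0 CPM) and 19 (52.6 CPM) lay between these pairs. Line 15 had the highest value of *Ezh2*, *Eed*, *Suz12*, *Crebbp*, *Kmt2c* and *Dot1l* among the lines. *Setd2* was highest in the IgM-negative line 18 (297 CPM) and lowest in the other IgM-negative line 19 (185 CPM).

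Between the 2 IgM-negative and the 4 IgM-positive lines none of the 10 genes passed in limma, where 0.646% of 12386 genes did. The largest difference was in *Kmt2d*, at 218 and 196 CPM in lines 18 and 19 and at 273, 287, 257 and 301 CPM in lines 14 to 17. The IgM-negative lines lay below all IgM-positive lines for this gene. The log2 fold change was -0.37 (SE 0.115, limma adjusted p = 0.318), and *Kmt2d* was the 1 gene of the 10 with an unadjusted p under 0.05, where 11.3% of all genes had one. The groups did not overlap for *Ep300* either, at 134 and 119 CPM against between 149 and 170 CPM (-0.26, SE 0.123, limma adjusted p = 0.498), and they overlapped for the other 8 genes. limma-voom (0.00807% of all genes called) and edgeR (0.194%) also called 0 of the 10 genes, and DESeq2 called 1, *Kmt2d* (adjusted p = 0.0463, between 0.0463 and 0.800 over the alternatives), where it called 6.05% of all genes.

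In the primary tumours 9 of the 10 genes had a lower mean than in lines 14 and 15, the lines of the same mice. *Suz12* was at 189 and 181 CPM in tumours 20 and 21 and at 405 and 407 CPM in lines 14 and 15. *Ezh2* was at 145 and 152 CPM against 226 and 273 CPM, *Ep300* at 84.0 and 95.3 CPM against 149 and 155 CPM, and *Setd2* at 120 and 145 CPM against 240 and 212 CPM. *Crebbp* was at 44.9 and 43.5 CPM against 67.6 and 83.3 CPM, and *Dot1l* at 147 and 133 CPM against 203 and 222 CPM. For these 6 genes both tumours lay below both lines, and for *Kmt2c* they did so narrowly, at 95.2 and 139 CPM against 140 CPM in line 14 and 144 CPM in line 15. *Eed* and *Kmt2d* overlapped between tumours and lines. *Ezh1* was the gene with the higher mean in the tumours, at 30.4 and 48.0 CPM against 33.0 and 24.7 CPM, and it overlapped as well.

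None of the 10 genes passed in limma, where 0.33% of 12719 genes did, and 6 had an unadjusted p under 0.05, as did 25.9% of all genes tested. The largest difference, in *Suz12*, was -1.18 on the log2 scale (SE 0.139, limma adjusted p = 0.0634). The median log2 fold change was -0.72 over the 10 genes and 0.01 over all genes. limma-voom and edgeR called 0 of the 10 genes and 0% of all genes, and DESeq2 called 6, where it called 16.5% of all genes. The titles and descriptions of the tumour libraries give opposite mouse numbers, so that the labels do not settle which line belongs to which tumour. The tumours were therefore left unpaired in limma as reported, and whether expression settles the pairing was not tested. With the replicate block by the mouse in the titles 6 of the 10 genes and 28.3% of all genes passed (*Suz12* adjusted p = 0.00778), and with the block by the mouse in the descriptions 0 of the 10 and 0% of all genes did (*Suz12* adjusted p = 0.281). Over the 12 alternative fits the *Suz12* log2 fold change was between -1.23 and -1.13, with an adjusted p between 1.11e-08 and 0.320. Macrophage markers (7 genes) summed to 41.7 and 31.0 CPM in the tumours and to 13.2 and 6.11 CPM in the lines. The T cell list (7 genes) summed to 2.06 and 1.80 CPM in the tumours and to 0.203 and 0.487 CPM in the lines. The proliferation list summed to 3072 and 3046 CPM in the tumours and to 4608 and 5189 CPM in the lines. The part of these lists in the lower values was not tested.

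**Figure D4:**
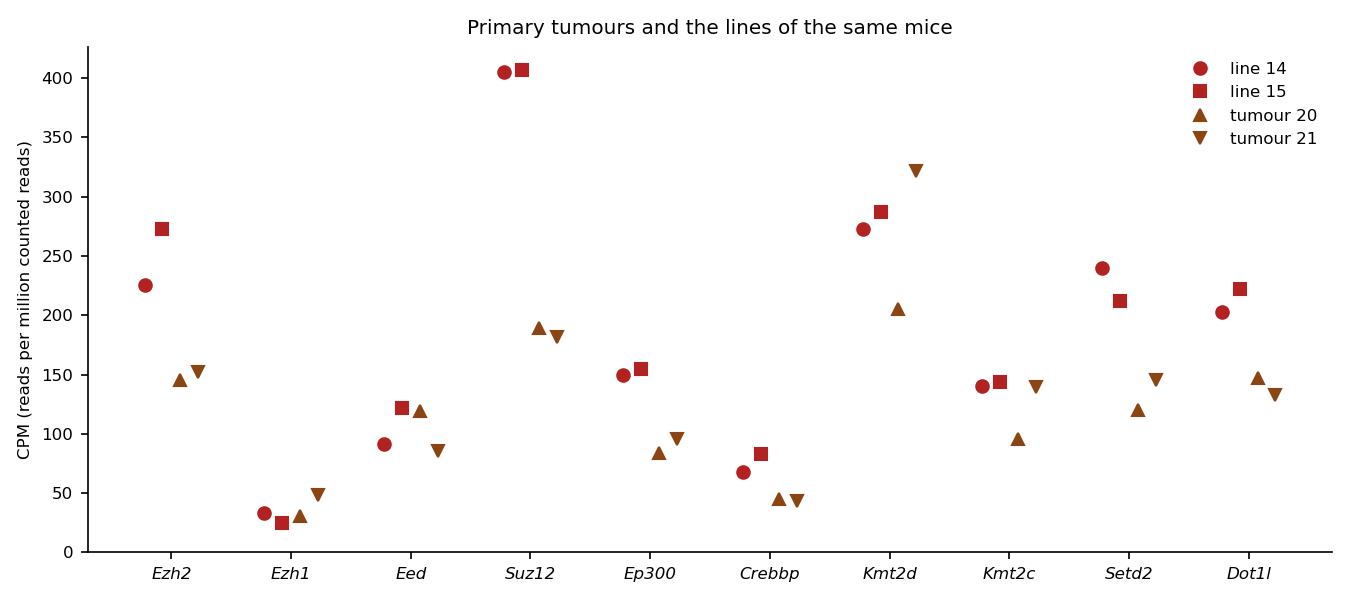
CPM (y axis from 0) of the 10 genes in primary tumours 20 and 21 (triangles) and in lines 14 and 15 (circle and square) from the same mice. Both tumours lie below both lines for *Ezh2*, *Suz12*, *Ep300*, *Crebbp*, *Setd2* and *Dot1l*, narrowly so for *Kmt2c*, and overlap with them for *Ezh1*, *Eed* and *Kmt2d*.

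Within the MEFs, the libraries with sgNT were compared with those without an sgRNA, with sg*Bcl-2* and with WT. These comparisons share the sgNT libraries, and their values are not independent. Against no sgRNA, the sgNT MEFs had lower *Ezh2* and *Dot1l*, by 2.06-fold and 2.07-fold. *Ezh2* was at 32.0 and 36 CPM without an sgRNA and at 16.5 and 16.8 CPM with sgNT (log2 fold change -1.04, SE 0.0987, limma adjusted p = 0.000225). *Dot1l* was at 67.5 and 61.2 CPM and at 31.0 and 31.6 CPM (-1.05, SE 0.0805, limma adjusted p = 8.69e-05). *Suz12*, at 80.7 and 75.6 CPM and at 60.9 and 67.7 CPM, was lower by a smaller amount (-0.30, SE 0.0867, limma adjusted p = 0.0275). *Setd2*, at 110 and 101 CPM and at 91.1 and 90.2 CPM, was also lower (-0.23, SE 0.0688, limma adjusted p = 0.0282). No group overlapped for these 4 genes. They were 4 of 10 genes called, all lower, where 41.1% of 14655 genes passed and 20.9% of the genes tested were lower.

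The *Setd2* call was lost with the replicate block by MEF line (adjusted p = 0.0675), in DESeq2 (adjusted p = 0.0732) and without each library in turn, and the *Suz12* call was lost without sgNT MEF 1 or either no-sgRNA library in limma (adjusted p between 0.0520 and 0.146) and without the low-value filter (adjusted p = 0.0591). *Ezh2* and *Dot1l* passed in all 11 alternative fits. *Ezh1*, at 19.1 and 18.2 CPM without an sgRNA and at 23.1 and 22.1 CPM with sgNT, did not pass in limma (0.26, adjusted p = 0.0527) and passed as higher in limma-voom (adjusted p = 0.0492, between 0.0492 and 0.230 over the alternatives). The proliferation list summed to 716 and 702 CPM without an sgRNA and to 372 and 379 CPM with sgNT, and its part in the differences was not tested. WT MEF 2, the library set apart above, had 32.9 CPM of *Ezh2* and 66.2 CPM of *Dot1l*. Its proliferation list summed to 229 CPM, the lowest of the MEF libraries. *Mcm2* (58.7 CPM) and *Pcna* (92.3 CPM) were near their no-sgRNA levels (59.3 and 58.4 CPM, 89.3 and 91.8 CPM). The other 6 markers, among them the replication gene *Mcm5* (11.5 CPM), were lower than in every other MEF library.

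**Figure D5:**
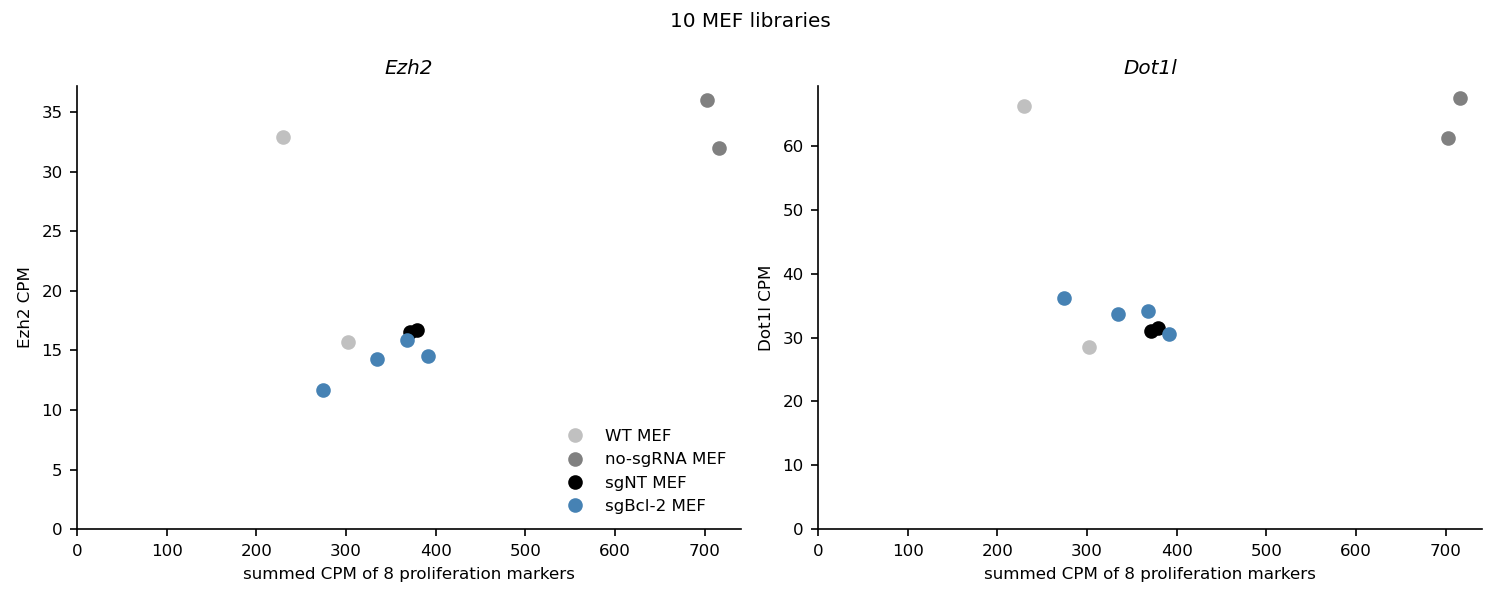
CPM of *Ezh2* (left) and *Dot1l* (right) against the summed CPM of 8 proliferation markers in the 10 MEF libraries, with all axes from 0. The no-sgRNA libraries are high on both axes. WT MEF 2, which stands apart from the other MEFs in its macrophage and fibroblast markers, lies at the lowest sum, 229 CPM.

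*Bcl2*, the gene targeted by the sgRNA, was at 67.9, 48.6, 46.8 and 71.8 CPM in the sg*Bcl-2* MEF libraries and at 13.4 and 13.7 CPM with sgNT. Of the chromatin regulators, 2 of the 10 passed against sgNT, where 10.8% of 14676 genes did. *Kmt2d* was at 78.5, 79.8, 79.3 and 83.8 CPM in the sg*Bcl-2* MEFs and at 113 and 119 CPM in the sgNT MEFs, with no overlap (log2 fold change -0.44, SE 0.0696, limma adjusted p = 0.00906). *Suz12* was at 82.5, 74.0, 71.6 and 83.3 CPM against 60.9 and 67.7 CPM, and all sg*Bcl-2* libraries lay above both sgNT libraries (0.36, SE 0.0973, limma adjusted p = 0.0490). The *Suz12* call was lost in limma-voom (adjusted p = 0.0535), in edgeR (adjusted p = 0.0521), without a scaling factor (adjusted p = 0.0697), without the low-value filter (adjusted p = 0.0532) and without sg*Bcl-2* MEF 1_1, 1_2 or 2_2, and it passed in 5 of 14 alternative fits (adjusted p between 0.0150 and 0.315). Without sgNT MEF 1 neither gene passed in limma (*Kmt2d* adjusted p = 0.0558), and neither did without sgNT MEF 2 (*Kmt2d* adjusted p = 0.0845), whereas *Kmt2d* passed in the other 12 of 14 alternative fits. Both passed with the libraries of one sg*Bcl-2* MEF line summed (*Kmt2d* adjusted p = 0.0198, *Suz12* adjusted p = 0.0473), where 9.37% of all genes did. Without a scaling factor the calls over all genes moved from 970 higher and 622 lower to 710 higher and 1137 lower. *Ezh2* was at 14.6, 15.9, 14.3 and 11.7 CPM against 16.5 and 16.8 CPM and did not pass (-0.16, SE 0.121, limma adjusted p = 0.425).

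Against WT MEFs no gene of the table passed in limma, whether sgNT (0% of 14560 genes) or no-sgRNA MEFs (0% of 14546 genes) were compared, and 589 and 1080 genes had an unadjusted p under 0.05, none of the 10 among them. limma-voom and edgeR (0% of all genes in both) and DESeq2 (0.57% for sgNT, 1.29% for no sgRNA) also called 0 of the 10 genes. The largest differences were in *Dot1l* for sgNT (-0.46, SE 0.410, limma adjusted p = 0.800) and in *Ezh2* for no sgRNA (0.61, SE 0.361, limma adjusted p = 0.779). The WT libraries themselves were at 28.5 and 66.2 CPM for *Dot1l* and at 15.8 and 32.9 CPM for *Ezh2*, and WT MEF 2 was the higher for all 10 genes. Without WT MEF 2, 1 of the 10 genes passed for sgNT (11.2% of all genes) and 4 for no sgRNA (31.8% of all genes), and the *Ezh2* log2 fold change of no sgRNA was 1.05 (limma adjusted p = 0.000520). Without WT MEF 1, 7 of the 10 passed for sgNT (53.4% of all genes) and 5 for no sgRNA (55.1% of all genes). 

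Genes whose pattern over the 20 libraries was among the most like that of *Ezh2*, of 11395 genes with a mean of at least 5 CPM, were *Actl6a* (Pearson's r = 0.990), a subunit of chromatin remodelling complexes, and *Atad5* (r = 0.989), which unloads the replication clamp. For *Ep300* they were *Zfp236* (r = 0.938), *Ccnt1* (r = 0.936), a cyclin of the elongation factor P-TEFb, and *Brd1* (r = 0.926), a subunit of acetyltransferase complexes. For *Ezh1* they were *Gm8680* (r = 0.897), *Rack1* (r = 0.885), a scaffold protein of the ribosome, and *Primpol* (r = 0.875), a primase-polymerase. Among the 10 genes themselves, *Kmt2d* and *Kmt2c* (r = 0.961) and *Suz12* and *Dot1l* (r = 0.949) were most alike, whereas *Ezh1* and *Ep300* (r = 0.215) were least alike. Without WT MEF 2 the correlations of the named genes lay between 0.871 and 0.991, that of *Kmt2d* and *Kmt2c* was 0.969, that of *Eed* and *Dot1l* 0.953, that of *Suz12* and *Dot1l* 0.949 and that of *Ezh1* and *Ep300* 0.185. These values describe libraries that fall into groups of unlike cell types, of which the preB-ALL libraries were also shallower and from another run, and they are not tests.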

How the data were processed

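RNA-seq values of 20 mouse libraries were analysed. The authors aligned reads with Rsubread to GRCm38, counted reads on each gene and deposited the values as unlogged CPM. The CPM steps gave whole reads for 100% of values (tolerance 0.01). Symbols came from RefSeq (25242 identifiers) and GENCODE (14), and 613 of 25869 had none. Exon lengths came from GENCODE.

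For each comparison only its own libraries were fitted. Genes were kept by filterByExpr, and limma 3.58.1 with trend was fitted to log2(CPM divided by the TMM factor + 0.1). Two-sided p-values were adjusted over all genes tested (Benjamini-Hochberg, threshold 0.05). As a fold change is on the log2(CPM + 0.1) scale, it understates changes of low genes. Ratios were tested by exact permutation. Alternatives were limma-voom, edgeR 4.0.16 and DESeq2 1.42.0 on the recovered reads (R 4.3.3), no scaling factor, a pseudocount of 1, no low-value filter, each library left out, a replicate block, tumours in place of lines 14 and 15, and no mitochondrial genes. The code was tested on simulated data with 200 genes changed 4-fold.

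The members, gene lists and tests were chosen with earlier results of these data known. Genes named beyond the 10 members were chosen by fixed rules, namely the 2 largest called log2 fold changes in each direction among 38 chromatin genes and the 3 highest correlations, of which 1 gene is not reported here. The other genes named are the targeted gene *Bcl2* and, chosen after their values were seen, members of the marker lists. The no-sgRNA, sgNT and sg*Bcl-2* MEF libraries with the same number came from the same dCas9-SAM MEF line by their titles, which pairs them, although over 13017 genes the difference between lines 1 and 2 correlated between these groups at only -0.224, -0.09 and 0.198. The WT lines came from other embryos and are not paired with them. Ranges and correlations without WT MEF 2 and fits with summed libraries were added after seeing the data.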

Additional observations from a re-analysis of the deposited data

Results flagged for a closer look

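Of 39 groups of values examined for a sample far from the others, 1 had such a sample, where chance gives about 1 in 20. Among the 4 IgM-positive lines the *Kmt2d*/*Kmt2c* ratio was 1.98, 2.03, 2.02 and 2.64 in lines 14, 15, 16 and 17. The gap between line 17 and its nearest neighbour was 0.914 of the whole range on the log2 scale. Line 17 had the highest *Kmt2d* (301 CPM) and the lowest *Kmt2c* (116 CPM) of these 4 lines.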

How the results depend on the processing

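Against preB-ALL, 5 of the 10 genes passed in limma as reported, 3 without a scaling factor (43.6%, here and below the share of all genes called in the same fit), 1 with the primary tumours in place of lines 14 and 15 (26%), and between 3 and 6 with one library left out (between 22.2% and 43.8%). The *Ezh2* log2 fold change reversed in DESeq2 (-0.00602), without a scaling factor (-0.22), with the tumours in place (-0.14) and without preB-ALL 2 (-0.33), with a range from -0.33 to 0.53 over libraries left out. *Crebbp* reversed without line 16 or line 17 (0.0380 and 0.0394), and leaving out one library gave between -0.18 and 0.0394. The *Ezh2*/*Ezh1* difference was between -0.23 and 0.86 with one library left out. Against sg*Bcl-2* MEFs, 8 genes passed as reported and 10 without a scaling factor (81.6%). Between IgM-negative and IgM-positive lines 1 gene passed in DESeq2 (6.05%). For the tumours 6 passed in DESeq2 (16.5%) and 6 with the replicate block by titles (28.3%), where 0 passed as reported. For sg*Bcl-2* against sgNT, 1 passed in limma-voom (10.6%), edgeR (10.6%), without a scaling factor (12.6%) and without a low-value filter (7.2%), and between 0 and 2 with one library left out (between 1.04% and 11.2%). For sgNT against no sgRNA it was between 2 and 3 with one library left out (between 27.2% and 31.8%) and 3 with the replicate block (36.7%). Against WT, with one library left out, it was between 0 and 7 for sgNT (between 0% and 53.4%) and between 0 and 5 for no sgRNA (between 0% and 55.1%), 0 with the replicate block (0%), and *Dot1l* for sgNT reversed without WT MEF 2 (0.0669, range -0.95 to 0.0669), as did *Suz12*, *Crebbp*, *Setd2*, *Ep300*, *Ezh2* and *Ezh1* (all 7 between 0.00608 and 0.26), while for no sgRNA *Crebbp*, *Setd2*, *Ep300* and *Kmt2d* did (between 0.13 and 0.33). In some alternative the direction changed for 8 genes for sgNT and 5 for no sgRNA against WT, 6 between IgM classes, 2 for the tumours, 3 each for sg*Bcl-2* against sgNT and sgNT against no sgRNA, 2 against preB-ALL and 0 against sg*Bcl-2* MEFs, none of them called as reported. The cause of these changes was not tested. Beside the *Setd2* call lost for sgNT against no sgRNA, the replicate block by MEF line changed no call of the 10 genes, and for WT it joins lines of other embryos and is void. The lowest depth behind a value of the 10 genes was 272 reads, and most groups hold 2 libraries.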
